A study of Mus musculus with 8 samples.

Results

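The genes that carry pyruvate and fatty acids into mitochondrial oxidation were followed in bone marrow-derived macrophages (BMDMs) of control (LysM) and myeloid KLF2 knockout (K2KO) mice. The set was listed by name and holds 40 genes of the 23761 in the deposited table, all protein coding: 7 of pyruvate entry, 17 of the tricarboxylic acid (TCA) cycle, 3 of the carnitine shuttle, 8 of the beta-oxidation spiral, 2 for unsaturated fatty acids and 3 that pass the electrons on. All 40 had a mean of at least 1 FPKM (fragments of a gene's transcript scaled to its length and to the size of the library, a level per length), so all were tested, and none was lost to the filter on low values.

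BMDMs are macrophages grown from flushed marrow in medium conditioned by L929 fibroblasts. Control mice were LysM Cre/Cre, with Cre recombinase driven by the lysozyme M gene, which is active in myeloid cells. The K2KO mice were LysM Cre/Cre KLF2 flox/flox, so both genotypes carried the Cre alleles and only the K2KO mice the floxed Klf2, which encodes the transcription factor KLF2. There were 4 libraries of each genotype, from mice of 3 months, and all were labelled as vehicle. Column names in the table show the genotype and not which mouse, and the libraries are called LysM0 to LysM3 and K2KO0 to K2KO3 here.

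Pyruvate made by glycolysis crosses the inner mitochondrial membrane through the pyruvate carrier and is turned into acetyl-CoA by the pyruvate dehydrogenase complex. Long-chain fatty acids enter as carnitine esters and are shortened to acetyl-CoA in repeated rounds of beta-oxidation. Acetyl-CoA from either source feeds the TCA cycle. In macrophages the balance of these routes is known to shift with activation: inflammatory activation goes with breaks in the TCA cycle and accumulation of succinate and itaconate, and alternative activation with fatty-acid oxidation.

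The targeted gene was examined first. Klf2 (ENSMUSG00000055148.7, chr8:72319033-72321656 of mm10) was at 44.1, 52.9, 64.7 and 72.8 FPKM in LysM0 to LysM3 and at 45.5, 41.6, 59.2 and 59.3 FPKM in K2KO0 to K2KO3. The groups overlapped, with a mean of 58.7 ± 12.7 FPKM in LysM and 51.4 ± 9.22 FPKM in K2KO (SD, n = 4 each), and the log2 fold change of -0.18 ± 0.17 (SE) did not pass the test (limma adjusted p = 0.460). The gene-level value does not say which exons were read, and the deposited table does not tell the K2KO libraries apart by Klf2. Directions below are therefore given for the libraries labelled K2KO.

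The regulatory sequence in front of 3 of the genes that changed is shown because each holds a match to a motif of a factor known for control of mitochondrial genes. Each window runs from 250 bases before to 50 after a RefSeq start site on GRCm38.p6, 5′ to 3′ on the gene's own strand, and capitals mark the match: CCGGAAGT, the ETS-type site that GABP binds, for Cpt2 and Slc25a20, and GCGCATGCG, the NRF1 site, for Etfdh.
Cpt2, chr4:107923540-107923839, minus strand: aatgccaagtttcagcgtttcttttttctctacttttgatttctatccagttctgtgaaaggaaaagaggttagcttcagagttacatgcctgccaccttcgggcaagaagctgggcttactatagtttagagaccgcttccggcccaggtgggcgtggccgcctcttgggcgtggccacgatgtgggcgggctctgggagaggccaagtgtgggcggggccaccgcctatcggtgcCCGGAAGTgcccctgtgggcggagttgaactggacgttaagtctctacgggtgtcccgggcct
Slc25a20, chr9:108661886-108662185, plus strand: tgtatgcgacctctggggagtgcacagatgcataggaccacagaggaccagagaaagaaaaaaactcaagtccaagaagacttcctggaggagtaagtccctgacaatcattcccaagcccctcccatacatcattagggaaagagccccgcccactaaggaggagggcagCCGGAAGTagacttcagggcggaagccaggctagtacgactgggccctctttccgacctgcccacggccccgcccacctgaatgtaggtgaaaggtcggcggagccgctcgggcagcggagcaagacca
Etfdh, chr3:79628718-79629017, minus strand: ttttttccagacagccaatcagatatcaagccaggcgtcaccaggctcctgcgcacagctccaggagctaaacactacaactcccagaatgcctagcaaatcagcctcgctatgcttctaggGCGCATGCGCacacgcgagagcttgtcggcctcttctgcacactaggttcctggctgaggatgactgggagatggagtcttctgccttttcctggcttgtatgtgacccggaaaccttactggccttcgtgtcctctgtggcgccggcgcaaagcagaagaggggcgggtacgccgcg
In the Etfdh window GCGCATGCG matches on both strands in overlapping places, which makes a capital run of 10 bases. The match began 13 bases before the start site in Cpt2 and 79 before it in Slc25a20, and 128 before it in Etfdh. Cpt2 was lower and both other genes were higher in the libraries labelled K2KO. Dlst, Acadm, Ogdh and Sdhd, whose windows also held a match to a searched motif, were not called.

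Of the 40 genes, 36 had at least 1 RefSeq window, 42 windows in all, and 4 motifs were searched on both strands. CCGGAAGT was in 7.14% of these windows (Cpt2, Dlst and Slc25a20) and in 3.89% of all 32851 windows of that length. GCGCATGCG was in 9.52% of them (Acadm, Etfdh and overlapping windows of Ogdh) and in 1.75% of all. The response element of estrogen-related receptors, TNAAGGTCA, was in 2.38%, by Sdhd alone, against 1.28% of all, and CCACACCC, a CACCC box of the kind KLF factors bind, was in 2.38%, by Acadm alone, against 3.56% of all. A match is a run of letters and not a measured binding site.

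Between genotypes, 7 of the 40 genes were called, that is, their log2 fold change was over 0.26 in size at an adjusted p under 0.05 (limma on log2(FPKM + 0.1), 10920 genes tested, Benjamini-Hochberg adjustment over all of them). This is 17.5% of the set, beside 18.4% of all tested genes. The share of all tested genes called higher was 9.84% and the share called lower 8.61%; in the set 4 genes were higher in the libraries labelled K2KO (Mpc1, Slc25a20, Etfdh and Dld) and 3 lower (Cpt2, Hadhb and Etfb). In bulk RNA a change in the number of cells of one kind and a change in RNA per cell cannot be told apart. For 11 genes (27.5%) all 4 libraries of one genotype lay above all 4 of the other, beside 23.1% of all tested genes. The share of the set called was thus near that of the table. When 1 library was left out, the number of the 40 called ran from 2 (without LysM3) to 9 (without K2KO3). In those 2 fits 4.98% and 26.2% of all tested genes were called.

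The median log2 fold change of the set was 0.0032, beside 0.011 for all tested genes, with 20 genes above and 20 below 0. The range ran from -0.48 (Cpt2) to 0.74 (Mpc1). Of the 33 genes not called, 23 had a 95% interval of the log2 fold change that stayed within 0.26 of 0, for FPKM as deposited. The other 10 (Mpc2, Pdhb, Idh3a, Idh3g, Suclg1, Sdhb, Acadl, Acaa2, Eci1 and Etfa) had intervals that reached past it, and their bounds lay between -0.41 and 0.56.

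**Figure D1:**
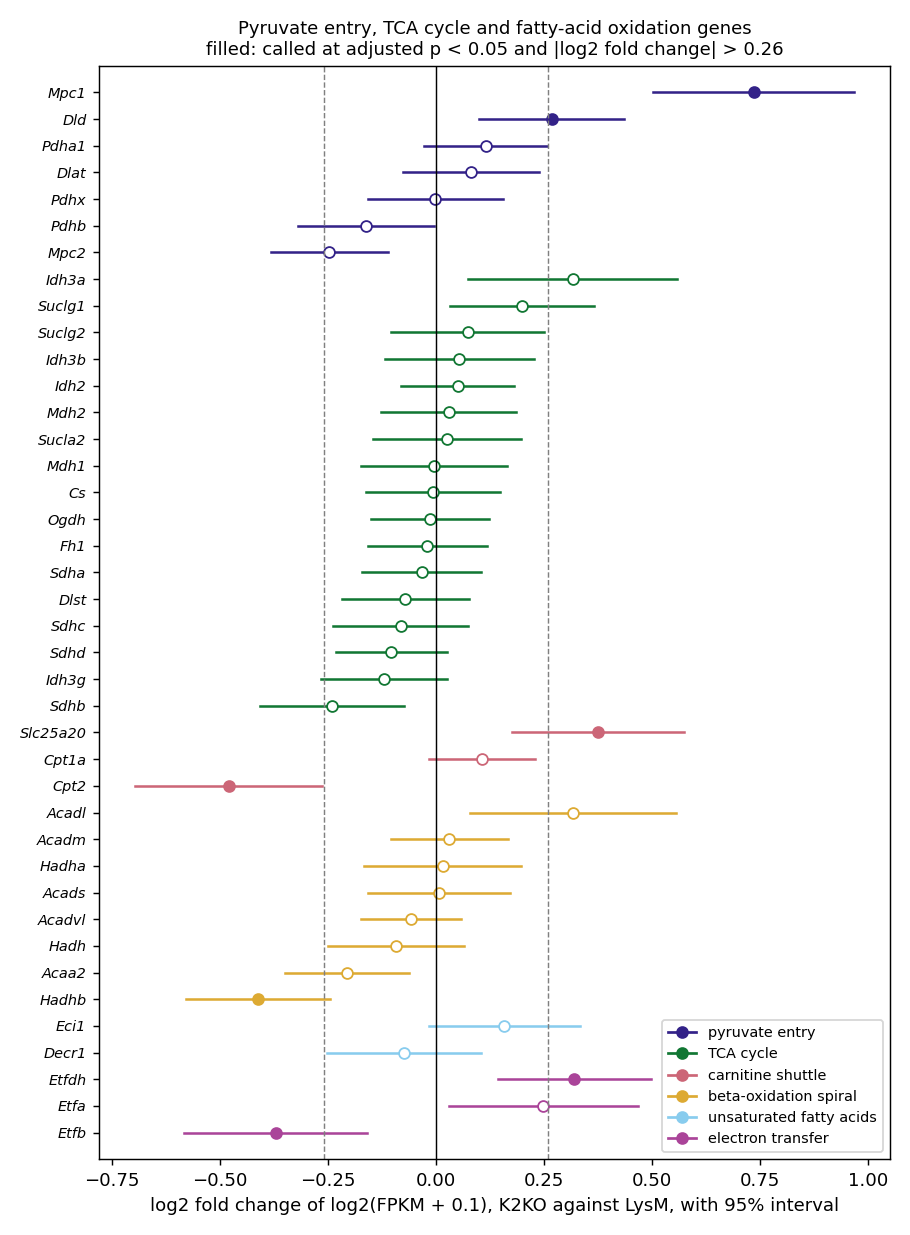
Log2 fold change (K2KO against LysM, on log2(FPKM + 0.1)) of the 40 genes, grouped by role, with 95% intervals. Filled points are called, and dashed lines mark 0.26 in each direction. The 17 TCA cycle genes have open points, and the 7 called genes lie on both sides of 0.

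Pyruvate entry held the largest change of the set. Mpc1 and Mpc2 encode the subunits that pair to form the mitochondrial pyruvate carrier. Mpc1 (ENSMUSG00000023861.17, chr17:8282904-8297661) was at 3.60, 3.21, 2.96 and 3.21 FPKM in LysM and at 6.02, 5.68, 5.76 and 4.50 FPKM in the libraries labelled K2KO. All 4 of the latter were above all LysM libraries, with K2KO3 the lowest among them. The means were 3.24 ± 0.264 and 5.49 ± 0.677 FPKM (SD, n = 4). The log2 fold change was 0.74 ± 0.10 (SE, limma adjusted p = 0.00642). Its partner Mpc2 (chr1:165460637-165481214) went the other way: 44.0, 43.9, 42.7 and 45.2 FPKM in LysM against 36.8, 37.2, 34.3 and 40.1 FPKM, a log2 fold change of -0.25 ± 0.06 whose adjusted p was 0.0256 (limma) but whose size was under the limit of 0.26. Mpc2 passed both limits without LysM2 (-0.26, limma adjusted p = 0.0482), without K2KO3 (-0.29, limma adjusted p = 0.00892) and after correction for GC content and transcript length (-0.39, limma adjusted p = 0.0265). When that correction used coding transcripts it did not (-0.09, limma adjusted p = 0.308). The ratio of Mpc1 to Mpc2 FPKM was 0.0738 ± 0.00556 in LysM and 0.149 ± 0.0255 in the libraries labelled K2KO.

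Mpc1 has a near-identical listed copy, the processed pseudogene Mpc1-ps (chr12:110858565-110858894, 99.7% identity over 330 bases), and fragments from one can be assigned to the other. Mpc1-ps was listed about an order of magnitude above Mpc1, at 32.6 ± 4.16 FPKM in LysM and 50.5 ± 8.14 FPKM in those labelled K2KO (log2 fold change 0.62 ± 0.13, limma adjusted p = 0.0176). The sum of both, each weighted by its length, was still higher in those labelled K2KO (log2 fold change 0.65 ± 0.12, limma adjusted p = 0.0130), and Mpc1 held 22.6% of it in LysM and 24.1% in K2KO. The unweighted sum of FPKM had a log2 fold change of 0.64 (limma adjusted p = 0.0151). The direction is thus that of both entries, while the level of Mpc1 itself is uncertain.

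In the pyruvate dehydrogenase complex, 1 gene of 5 was called, beside 18.4% of all tested genes. Dld, the dihydrolipoamide dehydrogenase that this complex shares with the oxoglutarate and branched-chain complexes, was higher in the libraries labelled K2KO (chr12:31331277-31351453). Its values were 21.3, 19.6, 20.8 and 19.7 FPKM in LysM and 23.8, 26.4, 26.4 and 21.7 FPKM in K2KO, without overlap (log2 fold change 0.27 ± 0.07, limma adjusted p = 0.0354). The call was not made when LysM1, LysM2, LysM3, K2KO0, K2KO1 or K2KO2 was left out. In those fits the log2 fold change was 0.23 to 0.28 (limma adjusted p from 0.0664 to 0.0988). Dld was also not called after each library was corrected for GC content and transcript length (log2 fold change 0.14, limma adjusted p = 0.149).

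The other genes of the complex were not called. Pdhb, the beta subunit of pyruvate dehydrogenase and the most abundant gene of pyruvate entry, was at 47.2, 53.8, 52.7 and 49.5 FPKM in LysM and at 41.3, 44.99, 47.2 and 48.2 FPKM in K2KO (log2 fold change -0.16 ± 0.07, limma adjusted p = 0.125). Those groups overlapped, and the sum with its pseudogene copy Gm6123 was not called (-0.15 when weighted by length, limma adjusted p = 0.139). The alpha subunit Pdha1, the acetyltransferase Dlat and the binding protein Pdhx had log2 fold changes of 0.12, 0.08 and -0.0012.

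The TCA cycle genes were the largest group, and 0 of 17 were called (limma; 3 had an unadjusted p under 0.05), beside 18.4% of all tested genes. Ordinary least squares per gene also called 0 of them, beside 6.83% of all tested genes. Their median log2 fold change was -0.0073 and the range -0.24 to 0.32. Cs, the citrate synthase that takes up acetyl-CoA (chr10:128337734-128362479), was at 52.6, 51.8, 55.3 and 47.7 FPKM in LysM and at 48.4, 56.1, 52.1 and 49.9 FPKM in K2KO. The log2 fold change of FPKM as deposited was -0.0073, with a 95% interval from -0.16 to 0.15, so a change past 0.26 lay outside it. After quantile normalization the log2 fold change of Cs was 0.09, and after upper-quartile scaling 0.04. Idh2, the NADP-dependent mitochondrial isocitrate dehydrogenase, was at 23.2, 22.6, 23.1 and 23.5 FPKM in LysM and at 22.5, 25.9, 24.2 and 23.1 FPKM in K2KO, a log2 fold change of 0.05 with an interval from -0.08 to 0.18.

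Isocitrate dehydrogenase of the NAD-dependent kind is built from the products of Idh3a, Idh3b and Idh3g. Idh3a, the catalytic subunit (chr9:54586334-54604661), had the largest difference of the cycle and was at 7.83, 7.80, 6.18 and 5.76 FPKM in LysM and at 8.14, 9.28, 8.56 and 8.19 FPKM in K2KO. The groups did not overlap, but the log2 fold change of 0.32 ± 0.11 had an adjusted p of 0.0641 (limma), or 0.0352 without LysM0. The values of Idh3b and Idh3g were 0.05 and -0.12 on the same scale. Ogdh and Dlst, subunits of oxoglutarate dehydrogenase, had log2 fold changes of -0.01 and -0.07.

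The subunits of succinate dehydrogenase, which is also complex II of the respiratory chain, were among the most abundant genes of the set. Sdhb, the iron-sulfur subunit (chr4:140961203-140979193), had the highest mean of all, 121.9 FPKM over the 8 libraries. It was at 127, 142, 133 and 126 FPKM in LysM and at 102, 110.4, 110.0 and 124 FPKM in K2KO. Each library labelled K2KO was below each LysM library, K2KO3 by the least, and the log2 fold change of -0.24 ± 0.07 had an adjusted p of 0.0476 (limma) but did not reach the size limit. Without K2KO3 it did (-0.29, limma adjusted p = 0.0140). The flavoprotein Sdha and the membrane anchors Sdhc and Sdhd, at -0.03, -0.08 and -0.10 on the log2 scale, overlapped between genotypes.

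Succinyl-CoA ligase pairs Suclg1 with either Sucla2 or Suclg2. The log2 fold changes were 0.20 for Suclg1 (interval 0.03 to 0.37, limma adjusted p = 0.0824), 0.03 for Sucla2 and 0.07 for Suclg2. Suclg2 shares 98.9% of 1302 bases with the listed pseudogene Gm15163, and their sum weighted by length had 0.16 (limma adjusted p = 0.204), against 0.26 unweighted (limma adjusted p = 0.0866). Gm15163 itself was called higher in the libraries labelled K2KO, with overlap between genotypes (0.93, limma adjusted p = 0.0352). Fumarate hydratase (Fh1) had -0.02, and the malate dehydrogenases of mitochondria (Mdh2) and cytosol (Mdh1) had 0.03 and -0.0044.

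**Figure D2:**
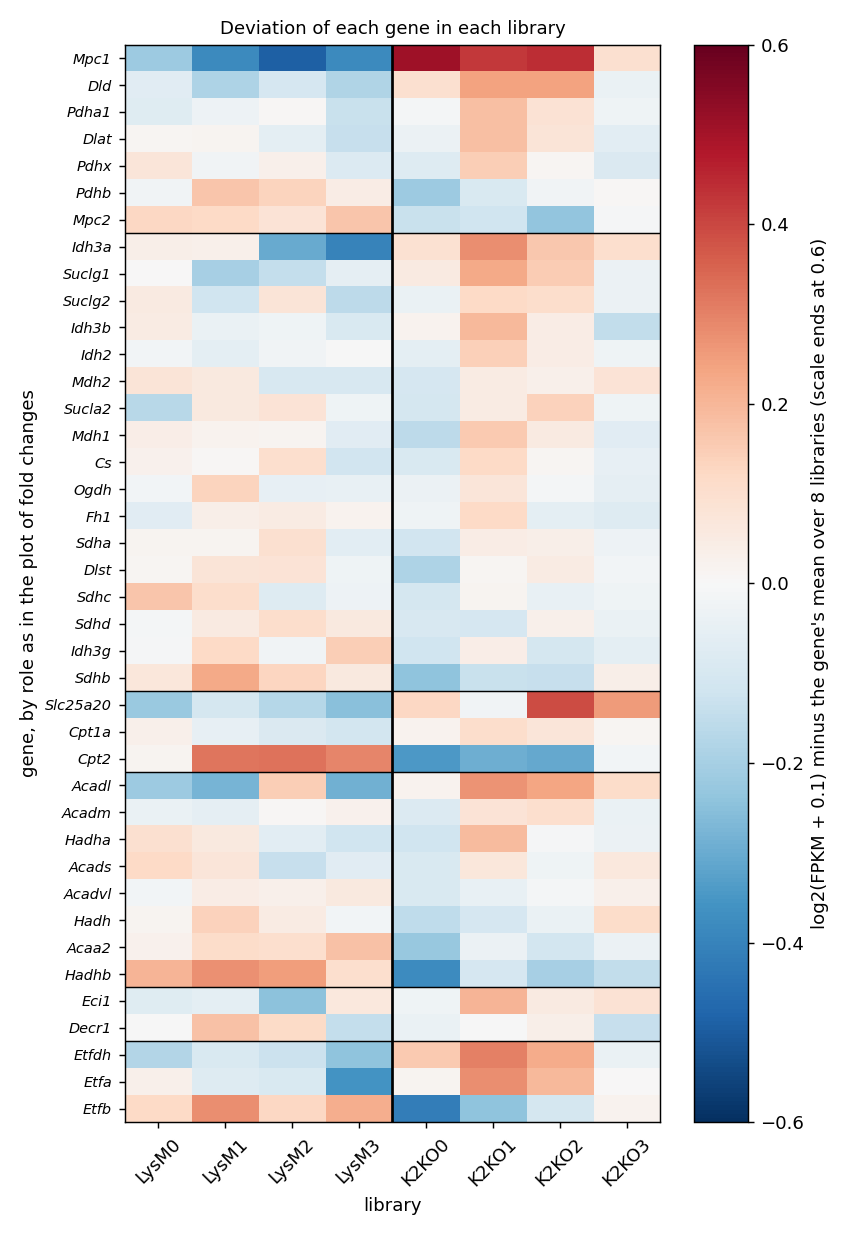
Deviation of log2(FPKM + 0.1) of each of the 40 genes (rows, in the order of the plot of fold changes) from its mean over the 8 libraries (columns). Red is above and blue below the mean, lines part the role groups, and the scale ends at 0.6; the median over genes runs from -0.087 in K2KO0 to 0.078 in K2KO1, both of the same genotype.

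The carnitine shuttle split in 2 directions. Cpt1a, the outer membrane carnitine palmitoyltransferase that is known as the rate-controlling step, was not called. It was at 25.1, 23.7, 23.1 and 22.7 FPKM in LysM and at 24.9, 26.4, 25.8 and 24.8 FPKM in K2KO (chr19:3322334-3385733). The log2 fold change was 0.11 ± 0.05, with an interval from -0.01 to 0.23 (limma adjusted p = 0.176).

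Slc25a20, the carnitine-acylcarnitine translocase of the inner membrane (chr9:108662088-108684641), was higher in the libraries labelled K2KO. Its values were 23.6, 25.5, 24.4 and 23.2 FPKM in LysM and 30.0, 27.1, 36.2 and 32.9 FPKM in K2KO, the latter all above the former. The log2 fold change was 0.38 ± 0.09 (limma adjusted p = 0.0226). Slc25a20 was no longer called without LysM3 (0.36, limma adjusted p = 0.0696) or without K2KO2 (0.31, limma adjusted p = 0.0567). The gene lies 2.23 Mb from Rpl29, a ribosomal protein gene listed at 0.150 ± 0.122 FPKM in LysM and at 382 ± 47.2 FPKM in K2KO. Of 93 tested genes within 2.5 Mb of Slc25a20, 25 (26.9%) were called, beside 18.4% of all tested genes; the same count was 4 of 8 around Etfdh, 5 of 15 around Dld, 5 of 25 around Mpc1, 14 of 70 around Etfb, 6 of 44 around Hadhb and 3 of 34 around Cpt2. Of those called, 13 were higher in K2KO around Slc25a20, 4 around Etfdh, 5 around Dld and 2 around Mpc1. The number higher was 0 around Etfb, 4 around Hadhb and 3 around Cpt2. The part of any neighbourhood in these values was not tested. Stretches of Slc25a20 transcripts also match Tmem72 and Tnfrsf22 by at least 95%, and these were listed at 0 and at a mean under 3 FPKM.

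Cpt2, the inner membrane transferase that reforms acyl-CoA (ENSMUSG00000028607.16, chr4:107903981-107923610), was lower in the libraries labelled K2KO. It was at 15.3, 18.9, 19.0 and 18.5 FPKM in LysM and at 11.9, 12.3, 12.2 and 14.9 FPKM in K2KO. The groups did not overlap, although LysM0 and K2KO3 lay close to each other. The means were 17.9 ± 1.77 and 12.8 ± 1.41 FPKM (SD, n = 4). The log2 fold change was -0.48 ± 0.10 (limma adjusted p = 0.0149). Without LysM3 Cpt2 was not called, at a log2 fold change of -0.46 (limma adjusted p = 0.0502). The ratio of Cpt1a to Cpt2 FPKM was 1.34 ± 0.205 in LysM and 2.01 ± 0.231 in the libraries labelled K2KO.

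**Figure D3:**
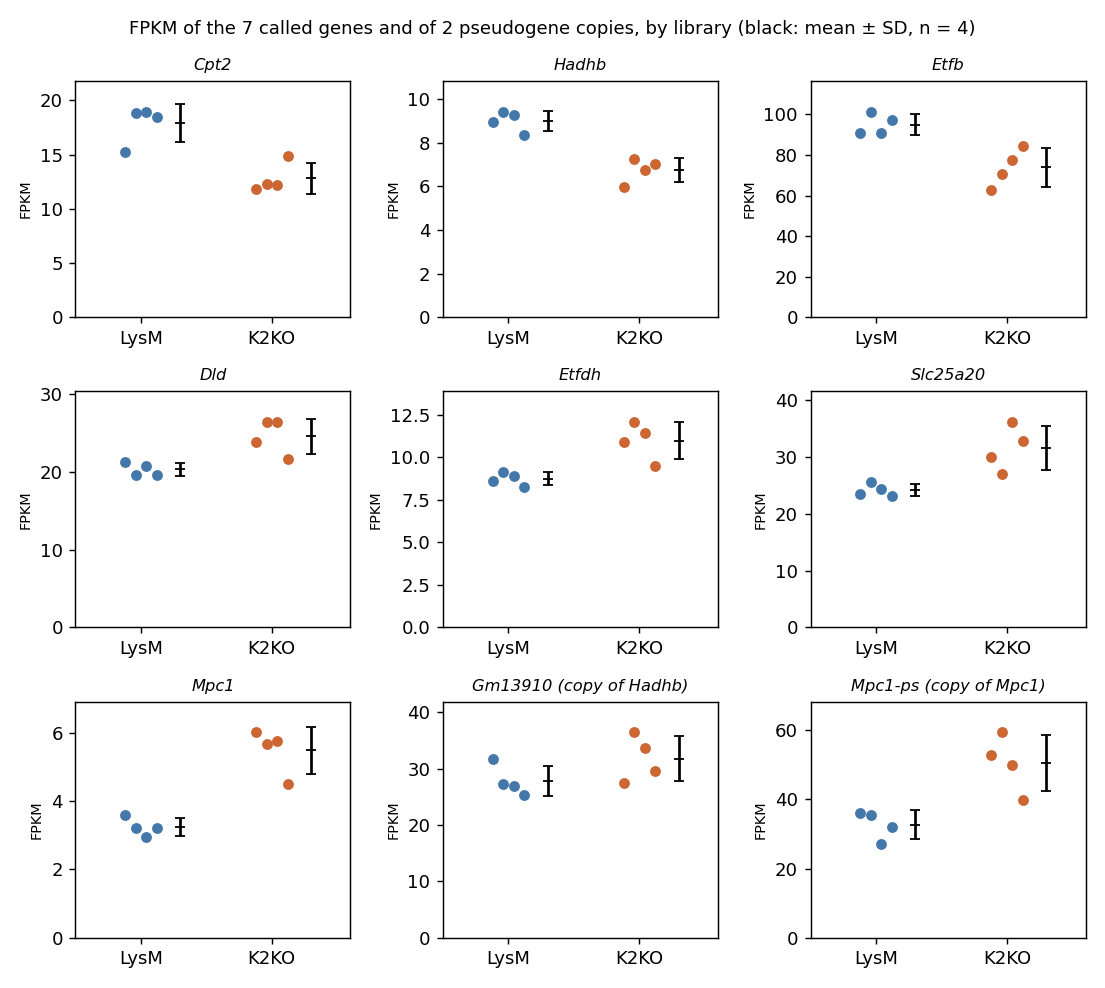
FPKM in each library of the 7 called genes and of the listed pseudogene copies of Hadhb and Mpc1, with the mean and SD of each genotype (n = 4) in black and the vertical axis from 0. The genotypes do not overlap in the 7 genes; they overlap in Gm13910, where the K2KO mean is above the LysM mean.

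In the beta-oxidation spiral 1 of 8 genes was called (12.5%, beside 18.4% of all tested genes), and the median log2 fold change was -0.02. The acyl-CoA dehydrogenases, which take the first step for fatty acids of different lengths, were not called. Acadvl, for very long chains and the most abundant of the group, was at 38.8, 40.5, 40.1 and 40.9 FPKM in LysM and at 36.9, 38.1, 38.9 and 40.1 FPKM in K2KO (log2 fold change -0.06, interval -0.17 to 0.06). Acadm and Acads, for medium and short chains, had 0.03 and 0.0077. Acadl, for long chains, had 0.32 ± 0.11 (limma adjusted p = 0.0608), with 31.0, 29.7, 39.99 and 29.5 FPKM in LysM and 36.5, 43.4, 42.5 and 38.9 FPKM in K2KO. LysM2 lay among the K2KO libraries, and without it Acadl passed both limits (log2 fold change 0.42, limma adjusted p = 0.0285).

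Hadha and Hadhb encode the subunits of the mitochondrial trifunctional protein, which carries out the later steps for long chains. They start 86 bases apart on opposite strands (chr5:30118304-30155162 and chr5:30155248-30184593). Hadhb was called lower in the libraries labelled K2KO, at 8.97, 9.41, 9.26 and 8.34 FPKM in LysM and at 5.96, 7.24, 6.76 and 7.02 FPKM in K2KO (log2 fold change -0.41 ± 0.07, limma adjusted p = 0.0123). Hadha was at 29.4 ± 2.08 and 29.7 ± 2.80 FPKM (log2 fold change 0.02, interval -0.17 to 0.20). The ratio of Hadha to Hadhb FPKM was 3.27 ± 0.195 in LysM and 4.41 ± 0.245 in the libraries labelled K2KO, although both proteins sit in one complex.

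The Hadhb value is uncertain because much of its sequence was also listed under a copy. The processed pseudogene Gm13910 (chr2:108948806-108950233) is 99.8% identical to Hadhb over 1428 bases and was listed at 27.8 ± 2.68 FPKM in LysM and 31.8 ± 4.01 FPKM in K2KO, with overlap (log2 fold change 0.19, limma adjusted p = 0.203). Since FPKM are per length, both were also summed after weighting each by its length. With the longest Hadhb transcript (4388 bases, a retained intron form) Hadhb held 49.9% of the weighted sum in LysM and 39.6% in K2KO, and the sum had a log2 fold change of -0.08 ± 0.08 (limma adjusted p = 0.487). With the longest coding transcript (2048 bases) these shares were 31.8% and 23.4%, and the log2 fold change was 0.02 ± 0.09 (limma adjusted p = 0.882). The unweighted sum of FPKM had 0.06 ± 0.09 (limma adjusted p = 0.654). The sum was thus not called in any of these forms, and its sign changed with the length assumed. How fragments were shared out between gene and copy cannot be read from the FPKM.

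Hadh, the hydroxyacyl-CoA dehydrogenase for shorter chains, had a log2 fold change of -0.09. Acaa2, the thiolase that closes the round, was below LysM in all 4 libraries labelled K2KO, with -0.21 ± 0.06 (limma adjusted p = 0.0481), under the size limit. The auxiliary enzymes for unsaturated fatty acids did not pass the test. Eci1, the enoyl-CoA isomerase, was at 11.5, 11.6, 10.2 and 12.6 FPKM in LysM and at 11.9, 13.9, 12.5 and 12.8 FPKM in K2KO (log2 fold change 0.16, limma adjusted p = 0.165). Decr1, the dienoyl-CoA reductase, had -0.07.

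Electrons from the acyl-CoA dehydrogenases pass to the electron transfer flavoprotein, a pair of Etfa and Etfb, and from there through Etfdh to ubiquinone. Etfb (chr7:43444083-43457800), the more abundant partner, was lower in the libraries labelled K2KO: 90.7, 101, 91.1 and 97.0 FPKM in LysM against 62.6, 70.6, 77.5 and 84.6 FPKM in K2KO. The groups did not overlap (log2 fold change -0.37 ± 0.09, limma adjusted p = 0.0273). Etfdh (chr3:79603788-79629500) was higher, with 8.63, 9.15, 8.92 and 8.26 FPKM in LysM against 10.9, 12.1, 11.4 and 9.49 FPKM in K2KO (log2 fold change 0.32 ± 0.08, limma adjusted p = 0.0255). Etfa, at 22.1, 20.5, 20.3 and 16.9 FPKM in LysM and 21.9, 26.3, 24.8 and 21.7 FPKM in K2KO, had a log2 fold change of 0.25 ± 0.10 (limma adjusted p = 0.0943) with overlap, and 0.23 when summed by length with its listed copies Gm15285 and Gm15289. The ratio of Etfa to Etfb FPKM was 0.211 ± 0.0298 in LysM and 0.324 ± 0.0505 in the libraries labelled K2KO.

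Both calls of this group depended on single libraries. Etfb and Etfdh were each called without LysM0 and without K2KO3, and not when LysM1, LysM2, LysM3, K2KO0, K2KO1 or K2KO2 was left out. The adjusted p (limma) then ran from 0.0518 to 0.0777 for Etfb and from 0.0517 to 0.0777 for Etfdh. Their log2 fold changes stayed of similar size in those fits, -0.40 to -0.29 for Etfb and 0.27 to 0.34 for Etfdh. Calls over all tested genes were 4.98% to 10.2% there. After the correction for GC content and length their log2 fold changes were -0.15 and 0.20, with adjusted p-values of 0.157 and 0.0653 (limma). When that correction used coding transcripts, Etfdh was called (0.27, limma adjusted p = 0.0460) and Etfb was not (-0.14, limma adjusted p = 0.173).

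Across the table the fold change moved with the base composition of the transcript. Spearman's rho between log2 fold change and GC content was -0.40 over 10899 tested genes and -0.30 over the 40 genes, given as a description since genes share their libraries. Over the 86 tested companion genes, other genes of these pathways given below, it was -0.57. With transcript length rho was 0.36 over all tested genes, 0.44 over these companion genes and -0.04 over the 40. Of the 40, the 4 called higher had a GC content of 40.6% to 48.2%, and the 3 called lower 39.1% (Hadhb), 52.6% (Cpt2) and 57.1% (Etfb). With the correction for GC content and length 6 of the 40 were called: Mpc1, Slc25a20 and Eci1 were higher in the libraries labelled K2KO and Mpc2, Cpt2 and Hadhb were lower, beside 9.06% of all tested genes. These GC contents are of the longest annotated transcript, which is not a coding one in 15 of the 40 genes, Hadhb, Slc25a20, Etfdh and Mpc2 among them. With the longest coding transcript the GC content was 45.4% for Hadhb and 53.3% for Mpc2, Spearman's rho was -0.43 over all tested genes and -0.36 over the 40, and the correction left 5 called: Mpc1, Slc25a20 and Etfdh higher, and Cpt2 and Hadhb lower, beside 7.84% of all tested genes.

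**Figure D4:**
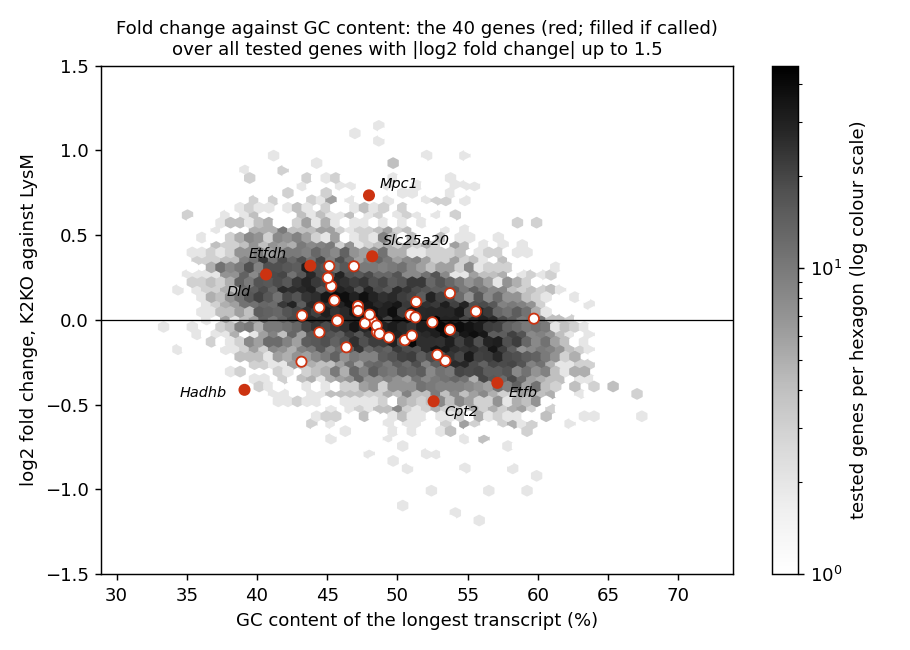
Log2 fold change (K2KO against LysM) against the GC content of the longest transcript, in percent. Grey hexagons count all tested genes within 1.5 of 0 on a log colour scale, and red points are the 40 genes, filled where called; the grey cloud slopes downward, and Mpc1, Cpt2 and Hadhb lie near its edges.

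The other genes of these pathways had a share of calls near that of the table. Of 104 listed, 102 were in the table, 86 were tested and 16 (18.6%) were called, of which 9 were above and 7 below LysM in the libraries labelled K2KO, beside the 18.4% of all tested genes. Their median log2 fold change was 0.0097. Further TCA cycle and anaplerosis genes, like the cycle itself, had 0 of 15 called (limma; 2 had an unadjusted p under 0.05, and ordinary least squares per gene called 0). Acod1, which makes itaconate, was at 1.13 ± 0.511 and 1.82 ± 1.39 FPKM (limma adjusted p = 0.584).

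Around pyruvate dehydrogenase, 1 of 5 tested kinase and phosphatase genes was called (20%, beside 18.4% of all tested genes). This was the activating phosphatase Pdp1, higher in the libraries labelled K2KO, 6.31 ± 0.832 against 8.48 ± 1.05 FPKM (log2 fold change 0.42, limma adjusted p = 0.0336, groups overlapping). The inhibiting kinase Pdk4 was listed under 0.04 FPKM in every library and was not tested. Among the 10 genes that build and attach lipoate, the cofactor of both dehydrogenase complexes, 2 were called (20%, beside 18.4% of all tested genes). These were the iron-sulfur cluster factors Glrx5 and Nfu1, both lower in the libraries labelled K2KO. Their log2 fold changes were -0.47 and -0.26 (limma adjusted p = 0.0147 and 0.0466). Of 10 genes of mitochondrial carriers and lactate, 3 were called (30%, beside 18.4% of all tested genes). The citrate carrier Slc25a1 (-0.32) and the dicarboxylate carrier Slc25a10 (-0.31) were lower, and the monocarboxylate transporter Slc16a7 was higher (0.37).

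The genes that prepare fatty acids for the carnitine shuttle had 4 of 8 called by limma, beside 18.4% of all tested genes, and 2 by ordinary least squares per gene, beside 6.83%. Dbi, the acyl-CoA binding protein, was the most abundant of them, at 305 ± 19.9 FPKM in LysM and 223 ± 13.9 FPKM in those labelled K2KO (log2 fold change -0.45, limma adjusted p = 0.00979). The acyl-CoA synthetases Acsl1 and Acsl4 were each higher by 0.31 and the peroxisomal carnitine octanoyltransferase Crot by 0.34 on the log2 scale. Among 15 further mitochondrial oxidation genes 1 was called (6.67%, beside 18.4% of all tested genes). This was Mlycd, which degrades the Cpt1a inhibitor malonyl-CoA, and it was lower (-0.32).

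Peroxisomal oxidation had 3 of 12 genes called (25%, beside 18.4% of all tested genes). The importer Abcd3 was higher in the libraries labelled K2KO, 10.9 ± 0.628 against 13.4 ± 1.35 FPKM (log2 fold change 0.28, limma adjusted p = 0.0377). The thiolase Acaa1a, which closes the peroxisomal round, was lower, 111 ± 5.62 against 83.6 ± 4.05 FPKM (log2 fold change -0.40, limma adjusted p = 0.00891). Myd88, at a mean of 43.3 FPKM, overlaps Acaa1a by 1736 bases on the opposite strand, so the Acaa1a value is uncertain to that extent. Calls within peroxisomal oxidation thus pointed in both directions.

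Of 11 tested transcriptional regulators of these pathways, 2 were called (18.2%, beside 18.4% of all tested genes), both higher in the libraries labelled K2KO. Hif1a, known for turning cells toward glycolysis, was at 7.50 ± 0.333 and 11.3 ± 1.21 FPKM (log2 fold change 0.58 ± 0.08, limma adjusted p = 0.00630). Gabpa, the DNA-binding subunit of GABP, was at 3.51 ± 0.222 and 4.98 ± 0.486 FPKM (log2 fold change 0.49 ± 0.09, limma adjusted p = 0.0120). Atp5j, at a mean of 142 FPKM, overlaps Gabpa by 701 bases on the opposite strand, so the Gabpa value is uncertain to that extent. Esrra, an estrogen-related receptor, had -0.18 (limma adjusted p = 0.0650). The co-activator Ppargc1b was listed at 0.244 ± 0.109 and 0.265 ± 0.0838 FPKM and Ppargc1a under 0.02 FPKM in every library, so neither was tested. The number of these companion genes called ranged from 4 without LysM3 to 20 without K2KO3, and was 6 after the correction for GC content and length. Of all tested genes 4.98%, 26.2% and 9.06% were called in these fits.

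**Figure D5:**
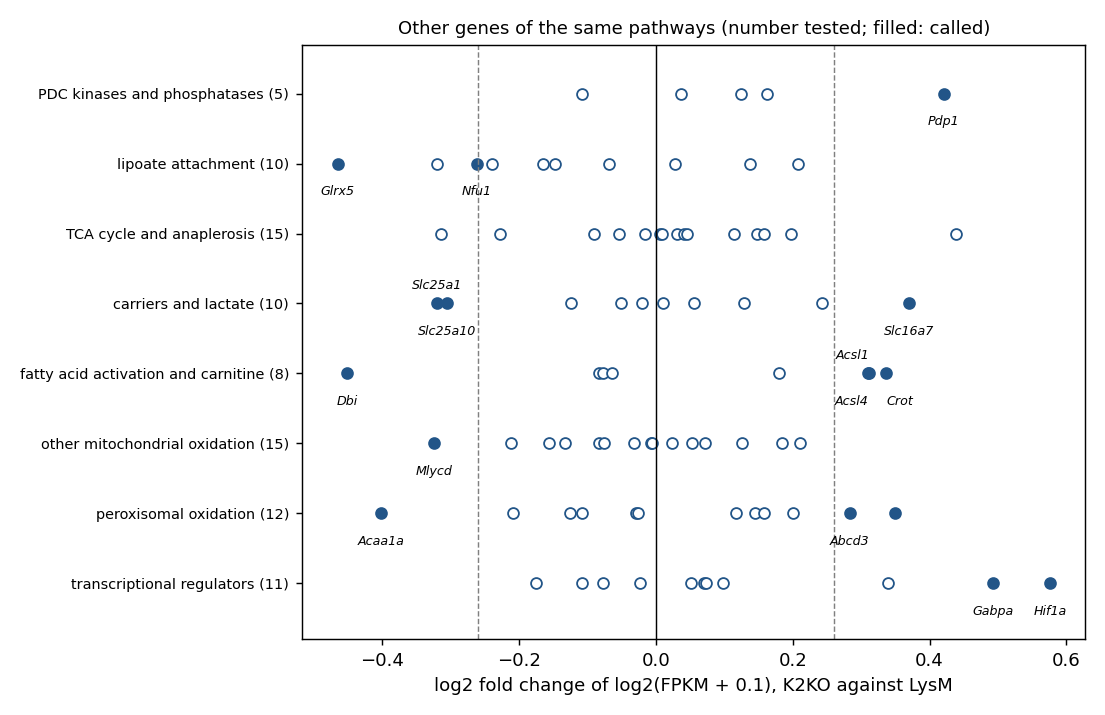
Log2 fold change (K2KO against LysM, on log2(FPKM + 0.1)) of the 86 tested companion genes, 1 row for each group with its number tested. Filled points are the 16 called, named where the text gives their values, 9 to the right and 7 to the left; the TCA cycle and anaplerosis row has none.

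Markers of other cells were read beside these values. Of 10 macrophage markers 9 were tested, Cd68 was the most abundant with a mean of 1807 FPKM, and their summed FPKM was 4809 to 5098 in LysM and 4469 to 4692 in K2KO. Mertk was called higher and Lyz2, the gene that carries the Cre, lower (18.6 ± 2.88 against 13.2 ± 1.73 FPKM). Ctsd was listed at 0 in all 8 libraries, and Gapdh was listed under 1 FPKM, so a value near 0 in this table is not read as absence. Of 8 neutrophil markers, S100a9 led with 129 FPKM, Camp was called lower (log2 fold change -1.14, limma adjusted p = 0.0178), and the sum was 186 to 315 FPKM in LysM and 175 to 306 FPKM in K2KO.

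No fibroblast, erythroid, dendritic cell or mast cell marker reached a mean of 1 FPKM, and the summed T cell list, 1.78 to 2.53 FPKM in LysM and 5.19 to 5.92 FPKM in K2KO, was Cd4 with Cd3d, Cd3e, Cd3g and Cd8a at a mean under 0.1 FPKM. Cd4 was called higher (log2 fold change 1.38, limma adjusted p = 4.34e-04). The B cell list was led by Ighm (18.5 FPKM), with none called. Only 2 of the 13 genes encoded in mitochondrial DNA were listed, both at a mean under 0.1 FPKM, so the mitochondrial share of RNA was not measured here. Whether the share of any of these cells bears on the 7 calls was not tested.

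The depth of the libraries was judged from the FPKM steps of genes with single fragments. Relative to LysM0 it was 0.973 to 1.23 in the other LysM libraries and 0.861 to 1.31 in K2KO (exact two-sided permutation p = 0.857, 35 splits of 4 against 4). The FPKM of all listed genes summed to 497253 to 551608 in LysM and to 448235 to 501965 in K2KO (exact two-sided permutation p = 0.0571). FPKM were not rescaled to this sum, so the fold changes and intervals above hold for FPKM as deposited. A single fragment on a transcript of 1 kb was worth about 0.0386 to 0.0579 FPKM, below the lowest value of any of the 40 genes in a library, 2.96 FPKM. FPKM carry no fragment counts, so no counting error is given for single values.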

How the data were processed

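Total RNA of BMDMs from 4 LysM and 4 K2KO mice was sequenced (stranded total RNA libraries, HiSeq, per the study's methods). The authors deposited FPKM, 1 column per library with no pooling, computed with Cufflinks on mm10. The methods name TopHat2 as the aligner and the submitters' processing notes name STAR, Cufflinks and Cuffdiff. The sources also name different RNA isolation kits. Versions, the gene filter and the use of strand in counting are not given in the sources used here. FPKM are not counts, so no count-based test was used.

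FPKM were compared as log2(FPKM + 0.1) for the 10920 genes with a mean of at least 1 FPKM by limma 3.58.1 in R 4.3.3 (lmFit, then eBayes with its trend option), without covariates, on all 8 libraries. A fold change on this scale understates the change of low genes. Calls needed a log2 fold change over 0.26 in size and a Benjamini-Hochberg adjusted p under 0.05, the limits of the study. Errors are SD for FPKM and SE for log2 fold changes. P-values measure the spread between these libraries. The script was tested on simulated data.

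Identifiers were matched to GENCODE M21 (GRCm38) for 23645 of 23761 genes. Near-identical copies (at least 95% over 200 bases) were sought with BLAST 2.17.0. Nop56, Dvl2, Map3k15 and other genes overlap members on the opposite strand, and those members are uncertain to that extent (Idh3b, Acadvl, Pdha1, Etfdh, Fh1, Hadha, Mdh1, Mpc1 and Sucla2). On the same strand, Etfb shares 13673 bases with the protein-coding gene Gm45233, which was not listed. Acadl shares 495 bases on its strand with the listed pseudogene Gm15793 (mean 0.615 FPKM). Etfb and Acadl are uncertain to that extent too. Promoter windows are RefSeq's on GRCm38.p6.

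The members, the companion, marker and motif lists and the tests were chosen with earlier results of these data known. Values in every library were given for each called gene, for the most abundant and the most changed gene of each role, and for Cpt1a, Mpc1, Cs and Idh2. Companion genes named were those called, up to 4 in each group, and Pdk4, Acod1, Ppargc1b, Esrra and Acsl1; 2 companion genes of this rule are not reported here. Rpl29, Gapdh, Ppargc1a, the pseudogene copies and the library values of Mpc2, Acadl and Etfa were added after their values were seen. Alternatives were the pseudocount (1, 0.01), the filter (0.1 FPKM, none), quantile and upper-quartile scaling, correction for GC content and length (local regression, span 0.3), limma without a trend, ordinary least squares, a block on the column number, each library left out, other call limits and, added after seeing the data, members summed with their listed pseudogene copies (FPKM as listed or weighted by transcript length) and the correction by coding transcripts.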

Additional observations from a re-analysis of the deposited data

Results flagged for a closer look

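In 80 groups of 4 libraries (40 genes in each genotype), 3 held a library far from the other 3 by Dixon's criterion, where chance gives about 4. Cpt2 was at 15.3 FPKM in LysM0, below the 18.5 to 19.0 FPKM of the other LysM libraries. Cpt2 was also at 14.9 FPKM in K2KO3, above the 11.9 to 12.3 FPKM of the other K2KO libraries. Acadl was at 39.99 FPKM in LysM2, above the 29.5 to 31.0 FPKM of the other LysM libraries.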

How the results depend on the processing

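The number of the 40 genes called, 7 with all libraries, ran from 2 (without LysM3) to 9 (without K2KO3) when 1 library was left out; the number higher ran from 1 to 5, the number lower from 1 to 5, and the number of companion genes, 16 with all libraries, from 4 to 20. Over all tested genes, 2014 calls became 543 without LysM3 and 2863 without K2KO3. Mpc1 and Hadhb were called in 8 of 8 such fits, Cpt2 in 7, Slc25a20 in 6, and Dld, Etfb and Etfdh in 2 each. With no filter on low values 2 were called (Mpc1 higher, Hadhb lower), so 1 in each direction, with 5 companion genes and 483 of 23761 genes. Ordinary least squares gave 3 (1 higher) with 7 companion genes and 746 genes in all. Quantile normalization gave 9 companion genes and 1534 genes in all (14% of those tested). Correction for GC content and length gave 6 companion genes and 989 genes. A limit on the adjusted p alone gave 6 lower genes (Mpc2, Sdhb and Acaa2 joined), with 2283 genes in all (20.9% of those tested). An absolute log2 fold change over 1 left 0 genes of the set, 0 higher, 0 lower and 0 companion genes, with 110 genes in all. The log2 fold change of Hadhb was 0.0607 when its FPKM were added to those of Gm13910, and with both weighted by length -0.083 (longest transcript) or 0.021 (longest coding transcript); it was not called in any of these. Correction by the GC content and length of the coding transcript gave 5 of the 40, 5 companion genes and 856 genes. The median of the set stayed between -0.043 and 0.050. A fragment on 1 kb was worth about 0.0386 to 0.0579 FPKM, so depth limits genes near that level; counting error was not computed.

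Numbers in the column names did not pair the libraries: the correlation of deviations was -0.07, 0.02, 0.07 and -0.06 for equal numbers. A replicate block on them gave 8 called genes of the set, Acadl added, and 2057 in all. The block with the GC and length correction gave 4 (1 higher), 5 companion genes and 923 genes.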
